A study of Mus musculus with 2 samples.

Results

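The genes described here encode the proteasome, its activators and its assembly factors. They are the gene symbols that begin with Psma, Psmb, Psmc, Psmd, Psme or Psmg and that had at least 20 UMIs (molecular barcodes that count captured transcripts once each) in each library, summed over barcodes of at least 2000 UMIs. Of 48 symbols considered, 46 met this rule, out of 28692 genes listed and 13214 that reached the same UMI minimum. Just inside the minimum were Psme2b, with 479 UMIs in the tumor-bearing mouse and 541 in the control mouse, and Psmc3ip, with 489 and 433. Just outside it were Psmb11, with 9 and 26 UMIs, and Psma8, with 0 and 2. By role, 14 members are subunits of the core particle, 17 of the regulatory particle, 4 belong to the immune forms, 2 are other activators, 3 help to assemble the regulatory particle and 4 the core particle. The remaining 2 are members by prefix only: Psmc3ip encodes a partner protein of meiotic recombination, and Psme2b is a near copy of Psme2, so reads of those 2 genes could have been split between them.

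Single-cell transcriptomes had been made in droplets from 2 wild type C57BL/6 mice, as 1 library per mouse. The tumor-bearing mouse had received 1000000 luciferase-labeled LLC cells (Lewis lung carcinoma, a mouse lung cancer line) under the skin of the dorsum 14 days earlier, and the control mouse was non-treated. Lungs of both were digested with collagenase and DNase and sorted for CD45- SftpC+ cells, that is for alveolar type 2 (AT2) epithelium. With 1 library per group there was no test across mice, and tumor, mouse, digest, sort and library cannot be told apart. All intervals are exact 95% intervals for counting error only.

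The proteasome degrades proteins that carry ubiquitin chains. Its core is a barrel of alpha and beta rings with the proteolytic sites on the inside, and the regulatory particle that caps it has a base of ATPases, which unfold substrates, and a lid, which removes ubiquitin. In cells exposed to interferon gamma, and constitutively in many immune cells, catalytic subunits are exchanged for immune forms such as Psmb9 (in place of Psmb6) and Psmb10 (in place of Psmb7), and the activator made of Psme1 and Psme2 can bind the core; peptides from these particles feed MHC class I presentation.

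The libraries held 84448360 and 91498124 UMIs, and 7632 tumor-bearing and 10021 control cells were kept. AT2 cells were defined by Sftpc at 15% or more of a cell's UMIs, which took 6263 and 9082 cells; 145 and 201 cells lay between 13% and 17%. Their makeup differed: the cluster led by Cxcl1 held 29.0% of tumor-bearing and 17.7% of control AT2 cells and that led by Nrn1 18.0% and 27.7%, 463 and 425 lay in unnamed clusters led by fibroblast, platelet or red cell genes, and 113 and 49 in other named clusters. The other classes are clusters named from marker genes: alveolar type 1 (AT1)-like cells of gas exchange (174 and 322 cells), club-like secretory airway cells (269 and 109), ciliated-like airway cells (215 and 283) and endothelial-like cells (548 and 75). In each class all of its own listed markers were detected, from 8 of 8 for club to 12 of 12 for endothelial cells. AT1, endothelial, club and ciliated cells lie outside the stated sort for AT2 cells, so their numbers were not compared. The libraries shared 128 barcodes of at least 2000 UMIs, against 122 expected from the size of the barcode list. Levels below are given as CPM (counts scaled to a common total), the UMIs of a gene per 1000000 UMIs of all genes in a class; fold values are ratios of CPM, and log2 values have 1 CPM added.

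The sequences upstream of 6 members are shown because the results below turn on them: Psmd9, Psmd10 and Psmc3ip stood highest in ciliated cells, Psmb10 in endothelial cells, Psme1 had the highest fold between libraries in AT2 cells among the 44 members that reached a mean of 10 CPM there, and Psmb6 is the constitutive counterpart of Psmb9. Each is the 250 bases before the RefSeq start of the gene on GRCm38.p6, 5′ to 3′ on the strand of the gene, with capitals for any match, on either strand, to 1 of 10 short patterns. These 6 sequences and the 10 patterns were chosen after the levels were known. Gene spans given further on are from GENCODE. Those of Psmd9 and Psme1 begin before the RefSeq start, and their whole sequences lie within the GENCODE span. Those of Psmd10 and Psmb10 also begin before it and take in the part of the sequence next to the start. The span of Psmc3ip meets its sequence at base 101095436.
Psmd9 (chr5:123227940-123228189, plus strand): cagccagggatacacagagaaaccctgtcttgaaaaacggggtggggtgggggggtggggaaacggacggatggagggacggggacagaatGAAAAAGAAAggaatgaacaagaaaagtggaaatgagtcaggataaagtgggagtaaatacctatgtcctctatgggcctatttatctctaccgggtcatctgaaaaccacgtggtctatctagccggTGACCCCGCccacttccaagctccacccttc
Psmd10 (chrX:140956712-140956961, minus strand): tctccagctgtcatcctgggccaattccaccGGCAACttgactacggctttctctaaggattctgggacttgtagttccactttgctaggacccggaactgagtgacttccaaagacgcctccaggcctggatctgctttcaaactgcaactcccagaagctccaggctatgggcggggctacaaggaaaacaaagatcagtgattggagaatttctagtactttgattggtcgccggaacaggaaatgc
Psmc3ip (chr11:101095436-101095685, minus strand): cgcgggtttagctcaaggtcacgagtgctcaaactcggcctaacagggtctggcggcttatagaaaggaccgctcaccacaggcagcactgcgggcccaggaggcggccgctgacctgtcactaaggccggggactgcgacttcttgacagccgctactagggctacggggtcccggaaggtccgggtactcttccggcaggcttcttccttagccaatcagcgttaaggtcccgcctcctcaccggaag
Psmb10 (chr8:105938393-105938642, minus strand): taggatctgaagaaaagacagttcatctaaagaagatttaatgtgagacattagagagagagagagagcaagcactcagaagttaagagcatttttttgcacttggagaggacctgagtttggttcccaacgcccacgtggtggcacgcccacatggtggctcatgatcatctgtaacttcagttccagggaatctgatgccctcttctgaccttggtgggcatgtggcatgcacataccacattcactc
Psme1 (chr14:55578244-55578493, plus strand): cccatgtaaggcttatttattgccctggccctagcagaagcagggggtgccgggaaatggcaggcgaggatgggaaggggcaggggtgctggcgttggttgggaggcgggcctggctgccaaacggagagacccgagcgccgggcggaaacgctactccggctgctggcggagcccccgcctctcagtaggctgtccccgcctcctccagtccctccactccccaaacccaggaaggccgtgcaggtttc
Psmb6 (chr11:70525107-70525356, plus strand): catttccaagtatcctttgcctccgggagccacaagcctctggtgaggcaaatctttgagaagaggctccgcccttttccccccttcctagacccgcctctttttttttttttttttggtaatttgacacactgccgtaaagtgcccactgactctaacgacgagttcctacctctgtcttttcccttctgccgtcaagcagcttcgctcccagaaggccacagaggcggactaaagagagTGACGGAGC

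Upstream sequence was matched for 39 of the 46 members, beside 27025 genes in all. The antioxidant response core TGACNNNGC was in 5 of the 39 members (12.8%; Psmb5, Psmb6, Psmc6, Psmd12 and Psmd9) and in 11.5% of all genes, and its longer form TGACTNNGC in 1 member (2.56%) and 3.52% of genes. GTTGCC, part of the X-box bound by RFX factors, was in 7 members (17.9%; Psma6, Psmb5, Psmb9, Psmd10, Psme2, Psme2b and Psme4) and 11.8% of genes, and GTTGCCA in 3 (7.69%) and 4.19%. The 3 full X-box patterns (GTTNCC and GGNAAC with 2 bases between, the same with AT between, and GTTNCC and GNAAC with 3 bases between) were in 0 of the 39 members and in 0.444%, 0.133% and 0.784% of genes. The repeat of interferon response elements, GAAA and GAAA with 2 bases between, was in 3 members (7.69%; Psmb3, Psmd4 and Psmd9) and 3.46% of genes, TTCNNNGAA in 1 (2.56%) and 8.13%, and TTCCNNGAA in 0 and 4.74%. Patterns that share letters overlap, and no test was made. The set that was highest in ciliated cells shared no pattern: Psmd9 held TGACNNNGC and the GAAA repeat, Psmd10 held GTTGCC on the opposite strand, and Psmc3ip and Psmb10 held none of the 10. When 50 bases after the start were included (300 in all), the GAAA repeat was in 5 members, Psme1 and Psmg4 being added, and in 3.99% of genes; each other pattern was in at most 1 member more.

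In AT2 cells the members stood at nearly the same level in both libraries. They took 0.318% of all UMIs in the tumor-bearing mouse and 0.331% in the control mouse, and a median AT2 cell held 27 and 22 member UMIs at median depths of 8878 and 6838 UMIs. Of the 46 members, 44 reached a mean of 10 CPM, and their tumor-bearing over control folds ran from 0.771 to 1.09. Their median log2 ratio was -0.07, beside -0.05 over all 6023 genes that reached the minimum. Taking a call as a level at least 25% above that of the control library, or at most 0.8 times it, with an interval that leaves out 1, 0 members were higher (3.84% of all genes were) and 1 was lower (4.81% of all genes were). These shares of members are not above the background of all genes.

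The 1 member called was Psme3, the nuclear activator of the core particle (chr11:101316213-101323537, plus strand, mm10). It stood at 14.8 CPM in the tumor-bearing mouse and 19.2 CPM in the control mouse, with a fold of 0.771 (0.705 to 0.842). Within AT2-like clusters its fold was 0.72 in the cluster led by Mhrt and Hc, 0.80 in that led by Nrn1 and Scd1, 0.83 in that led by Areg and Gsta1, and 0.94 in that led by Cxcl1 and Egr1. All 4 were below 1, and when the clusters were weighted equally its log2 ratio of -0.29 no longer met the size of a call. The other activator, Psme4, stood at 16.7 and 17.9 CPM, 0.935-fold (0.857 to 1.02).

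The subunits of the core particle lay close to 1. The 7 alpha ring genes, which form the outer rings and the gate, had folds between 0.940 and 1.05, and the 4 structural beta ring genes between 0.928 and 0.989. Of the constitutive catalytic subunits, Psmb5 (chymotrypsin-like site) stood at 111.8 CPM in the tumor-bearing mouse and 128.2 CPM in the control mouse, 0.872-fold (0.844 to 0.901). Psmb6 (caspase-like site) stood at 163.6 and 174.3 CPM, 0.939-fold (0.913 to 0.965), and Psmb7 (trypsin-like site) at 79.4 and 76.8 CPM, 1.03-fold (0.994 to 1.08). None of the core genes met the call.

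Several subunits of the regulatory particle were lower by less than the call. The ATPase Psmc1 stood at 37.1 CPM in the tumor-bearing mouse and 44.8 CPM in the control mouse, 0.828-fold (0.782 to 0.876), which was the lowest fold after Psme3. Psmc4, also an ATPase of the base, was at 39.7 and 45.8 CPM, 0.865-fold (0.818 to 0.914), and Psmc5 at 43.8 and 50.2 CPM, 0.872-fold (0.827 to 0.919). The lid subunit Psmd11 was at 66.5 and 76.9 CPM, 0.864-fold (0.828 to 0.902). In contrast, the ATPase Psmc2 was at 36.6 and 35.6 CPM, 1.03-fold (0.968 to 1.09), and the lid subunit Psmd12 at 30.3 and 28.0 CPM, 1.08-fold (1.01 to 1.16), so the base and lid did not move as a block. The median log2 ratio was -0.14 over the 6 ATPases, -0.06 over the 8 lid genes and -0.08 over the 17 regulatory particle genes. With a call at 1.1-fold, 9 members were lower (Psmb5, Psmb9, Psmc1, Psmc4, Psmc5, Psmd1, Psmd11, Psme3 and Psmg1) and 0 higher. The share of all genes called at 1.1-fold is not given, so these counts cannot be set against a background.

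Assembly factors had folds from 0.856 to 1.06. Psmg1, a chaperone of the alpha ring, was at 11.3 CPM in the tumor-bearing mouse and 13.2 CPM in the control mouse, 0.856-fold (0.771 to 0.949). The chaperones of the ATPase ring were nearer to 1: Psmd5 at 0.995-fold (0.920 to 1.07), Psmd9 at 0.941-fold (0.873 to 1.02) and Psmd10 at 1.06-fold (0.978 to 1.14).

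**Figure D1:**
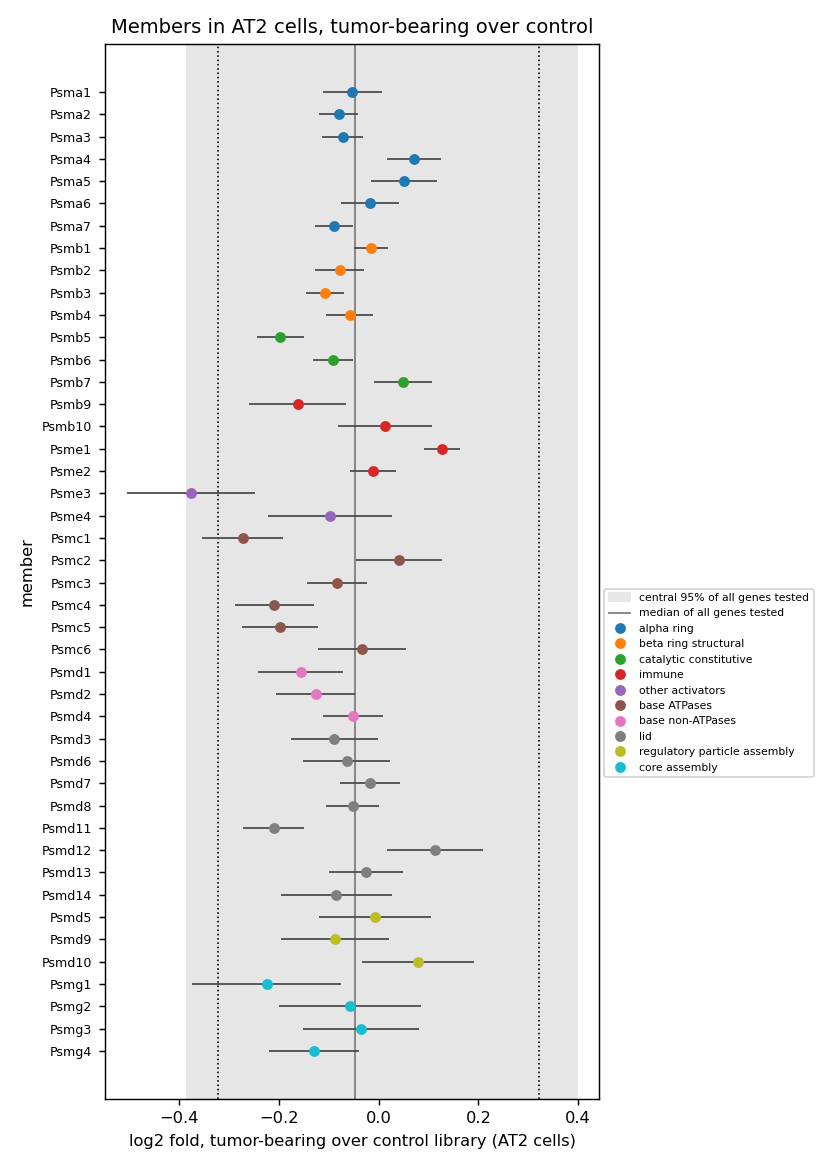
Tumor-bearing over control log2 fold in AT2 cells for the 44 members that reached 10 CPM, with 95% counting intervals; colours give roles, the grey band the central 95% of all 6023 genes, and dotted lines the limits of a call. Only Psme3 lies beyond a dotted line, and all 44 folds, Psme3 included, lie within the band.

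The immune forms did not move together in AT2 cells. The activator subunit Psme1 (chr14:55578123-55581529, plus strand) stood at 206.7 CPM in the tumor-bearing mouse and 189.3 CPM in the control mouse, 1.09-fold (1.06 to 1.12), the highest fold of the 44 members, while its partner Psme2 (chr14:55587441-55591113, minus strand) stood at 126.1 and 127.2 CPM, 0.992-fold (0.961 to 1.02). The catalytic Psmb9 (chr17:34181987-34187764, minus strand) stood at 27.0 and 30.2 CPM, 0.894-fold (0.835 to 0.956), and Psmb10 (chr8:105935735-105938444, minus strand) at 30.2 and 29.98 CPM, 1.01-fold (0.945 to 1.08). The 4 genes together took 12.3% (12.1 to 12.4) of member UMIs in the tumor-bearing mouse and 11.4% (11.3 to 11.5) in the control mouse. Psme1 and Psme2 together took 10.5% (10.3 to 10.6) and 9.57% (9.44 to 9.69), and of this pair only Psme1 was higher in CPM in the tumor-bearing mouse. Shares within subunit pairs differed less: Psmb9 made up 14.1% (13.5 to 14.8) and 14.8% (14.1 to 15.4) of Psmb9 and Psmb6 UMIs, and Psmb10 27.6% (26.5 to 28.7) and 28.1% (27.0 to 29.2) of Psmb10 and Psmb7 UMIs. These shares do not depend on the scaling to CPM. Over the 12 endothelial markers the summed level in AT2 cells was 175 CPM in the tumor-bearing mouse and 55.0 CPM in the control mouse, with 0 markers absent from either. Other lists also differed, with 9 fibroblast markers at 61.4 and 19.3 CPM, 4 neutrophil markers at 30.4 and 0.203 CPM (S100a8 and S100a9 at 0 in the control library) and 5 red cell markers at 54.9 and 257.9 CPM, while 7 leukocyte markers stood at 55.6 and 52.4 CPM. The part of these cells in the immune values was not tested.

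Members stood higher in the AT2-like clusters led by Top2a and by Areg than in those led by Mhrt, Nrn1 and Cxcl1. That gap was wider than the difference between libraries within any of these clusters. Clusters were formed without the members. The small cluster led by 2810417H13Rik and Top2a, genes of dividing cells (44 tumor-bearing and 15 control cells with Sftpc at 15% or more), held 4367 CPM (4194 to 4546) of summed members in the tumor-bearing mouse and 4596 CPM (4264 to 4948) in the control mouse. The cluster led by Areg and Gsta1 held 3672 CPM (3629 to 3716) and 3757 CPM (3724 to 3791). The clusters led by Mhrt, Nrn1 and Cxcl1 held between 2995 and 3109 CPM in the tumor-bearing mouse and between 3059 and 3283 CPM in the control mouse. The order with dividing cells first and the Areg cluster next was the same in both libraries. Those clusters also had the lowest Sftpc share of UMIs among the 5, 20.6% and 20.9% in the Top2a cluster and 23.4% and 24.1% in the Areg cluster, against between 25.3% and 28.7% in the others, and a lower Sftpc share raises the CPM of every other gene. Against the remaining AT2 cells, the median log2 ratio of the 44 members was 0.42 and 0.52 in the Top2a cluster, beside 0.16 and 0.13 over all genes, and 0.24 and 0.25 in the Areg cluster, beside 0.12 and 0.10. The immune share of member UMIs was between 11.9% and 12.9% in the tumor-bearing mouse and between 10.3% and 11.7% in the control mouse over these 5 clusters.

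**Figure D2:**
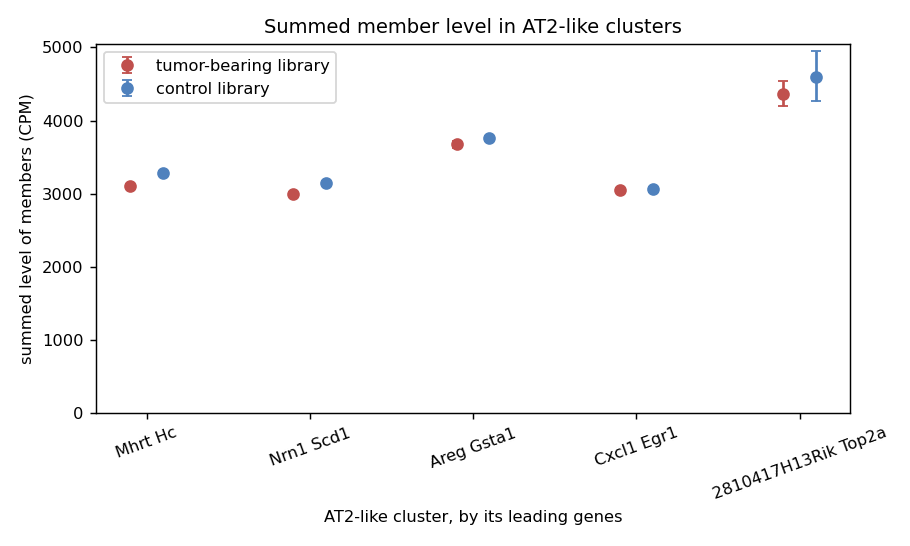
Summed level of the 46 members (CPM) in 5 AT2-like clusters with 15 or more AT2 cells in each library, named by leading genes; points are libraries and bars 95% counting intervals, some smaller than the points. The Top2a cluster is highest in both libraries, at 4367 and 4596 CPM.

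Across cell classes, members took more of the UMIs in AT1 (0.594% in the tumor-bearing mouse and 0.650% in the control mouse), ciliated (0.637% and 0.630%) and endothelial cells (0.725% and 0.688%) than in AT2 cells (0.318% and 0.331%), and less in club cells (0.226% and 0.301%). The direction for club cells turned with the scaling, and most of the rise elsewhere was shared with all genes. Taking a call as at least 1.5-fold in both libraries, 35 of 44 members were higher in AT1 than in AT2 cells (53.9% of all genes were) and 0 lower (7.73% were). In ciliated cells 34 of 45 were higher (51.8%) and 1 lower (9.21%), in endothelial cells 33 of 45 were higher (41.4%) and 0 lower (5.39%), and in club cells 0 of 44 were higher (3.62%) and 3 lower (34.3%). The 34 and the 45 in ciliated cells include Psmc3ip, a member by prefix only. It reached the CPM minimum only through its ciliated level, so its call followed from that minimum. Surfactant transcripts take a large share of AT2 UMIs, the 11 AT2 markers summing to 359861 and 357740 CPM, and this lowers the CPM of every other gene there. The median log2 ratio of all genes against AT2 was 0.79 and 0.74 in AT1, 0.82 and 0.75 in ciliated, 0.92 and 0.82 in endothelial, and -0.87 and -0.42 in club cells; the members lay between 0.25 and 0.40 above it in each class and library. When the median of all genes was set to no difference, the members' median was above 0 in all 4 classes, club included. In AT1 cells 5 of 44 members stayed called higher, and 5 of 45 did in ciliated (Psmc3ip among them) and in endothelial cells. Of all genes 18.6%, 24.2% and 17.9% were called higher there, so these counts of members are not above the background. In club cells 9 of 44 members were called higher at that scaling, beside 8.33% of all genes. Shares of member UMIs do not depend on the scaling; beside folds given below it is said whether the call held under each of the 3 scalings (CPM, the median of ratios, and a total without mitochondrial and the 50 most abundant genes).

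**Figure D3:**
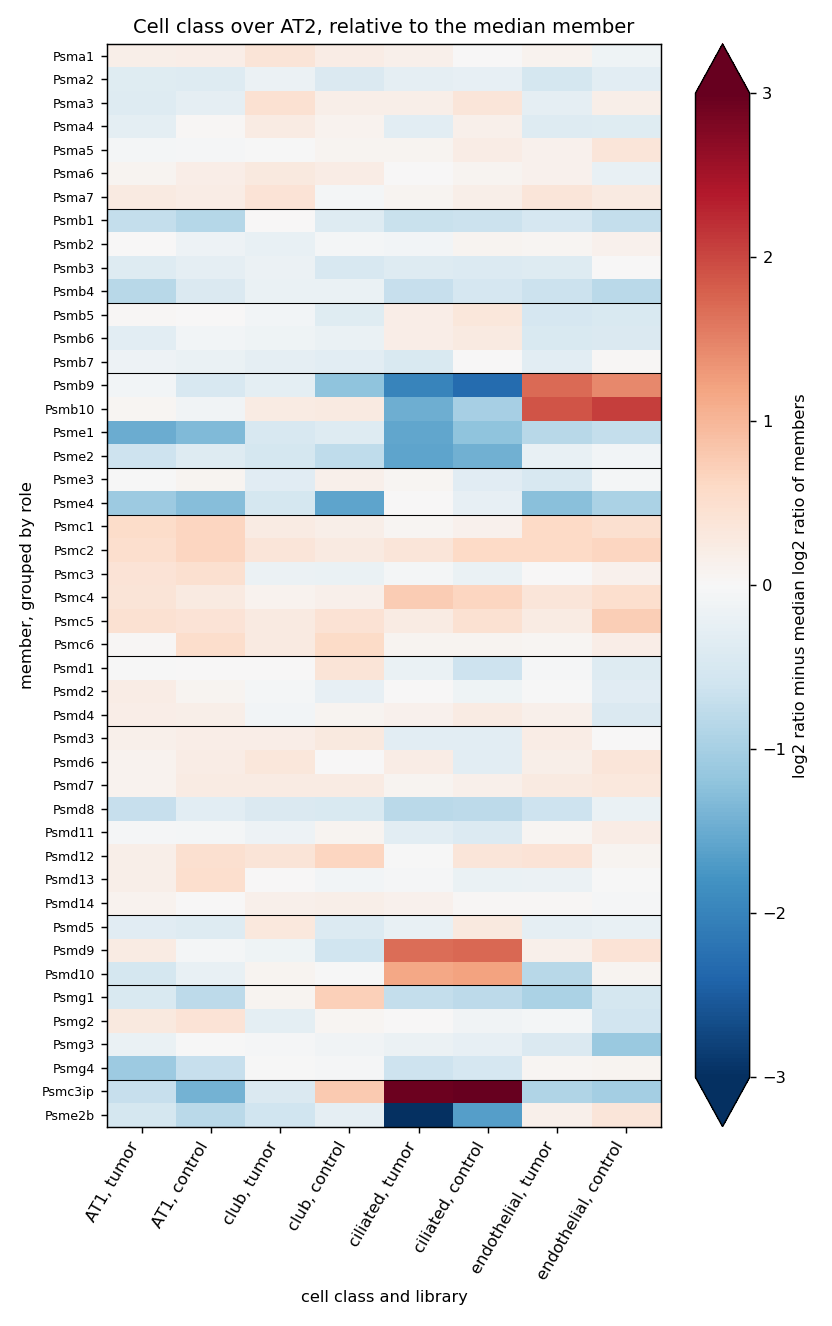
Log2 ratio of each member's CPM in 4 cell classes over AT2 cells, minus the median log2 ratio of the members in that column (colour, limited to -3 to 3), with 2 columns per class, 1 for each library, and lines between roles. Psmb9 and Psmb10 stand out as high in endothelial cells, and Psmd9, Psmd10 and Psmc3ip as high in ciliated cells, in both libraries.

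Endothelial cells carried the immune catalytic subunits at the highest level. Psmb10 stood at 278.6 CPM in the tumor-bearing mouse and 272.8 CPM in the control mouse, against 30.2 and 29.98 CPM in AT2 cells, a fold of 9.21 and 9.10. Psmb9 stood at 219.4 and 177.9 CPM, against 27.0 and 30.2 CPM, a fold of 8.14 and 5.90. Both were above every other class in both libraries, and both calls held under each scaling. Psmb9 made up 43.1% (40.0 to 46.2) and 39.5% (30.4 to 49.1) of Psmb9 and Psmb6 UMIs in endothelial cells, and Psmb10 64.2% (60.8 to 67.4) and 62.2% (52.5 to 71.2) of Psmb10 and Psmb7 UMIs. The intervals did not meet those of any other class.

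The activator did not follow the catalytic subunits. Psme2 was 2.09-fold and 1.99-fold, and Psme1 1.36-fold and 1.30-fold, above AT2 cells in CPM in endothelial cells, below the folds of Psmb9 and Psmb10. All genes stood 0.92 and 0.82 above AT2 on the log2 scale there, and under the other 2 scalings Psme2 lost its call (between 1.04-fold and 1.18-fold), while Psme1, which had none, turned to between 0.678-fold and 0.766-fold. Psme1 and Psme2 together took 7.50% (7.07 to 7.95) and 7.24% (6.07 to 8.56) of member UMIs in endothelial cells, less than their 10.5% and 9.57% in AT2 cells. In cells thinned to 2000 UMIs, 39.1% of tumor-bearing and 28.0% of control endothelial cells had a Psmb9 UMI, against 5.14% and 5.65% of AT2 cells; unthinned these were 51.6% and 45.3% against 21.1% and 18.5%, at median depths of 3044.5 and 2676 UMIs in endothelial and 8878 and 6838 in AT2 cells. For Psmb10 the thinned shares were 44.3% and 44.0% against 5.52% and 5.66%, and unthinned 59.1% and 62.7% against 23.2% and 18.6%. Leukocytes also express these subunits; the 7 leukocyte markers summed to 41.7 and 55.4 CPM in endothelial cells, with Ptprc and Tyrobp at 0 in both libraries, and to 55.6 and 52.4 CPM in AT2 cells. Psmb9 overlaps Tap1 on the other strand by 212 bases, and Tap1, a peptide transporter, was itself higher in endothelial cells (45.8 and 27.7 CPM against 6.47 and 7.80), so reads of the overlap could belong to either.

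Ciliated cells were at the other end. Psmb9 stood at 14.7 CPM in the tumor-bearing mouse and 11.6 CPM in the control mouse, 0.547-fold and 0.385-fold of AT2 cells, and this call held under each scaling. Psmb9 made up 3.42% (2.00 to 5.42) and 2.70% (1.52 to 4.42) of Psmb9 and Psmb6 UMIs, below the 14.4% (12.5 to 16.5) and 13.3% (10.5 to 16.5) of empty droplets. Psmb10 was at 24.3 and 30.2 CPM, and its share of Psmb10 and Psmb7 UMIs was 15.7% (10.7 to 21.9) and 16.3% (11.9 to 21.6). All 4 immune genes together took 4.54% (4.08 to 5.04) and 4.71% (4.26 to 5.19) of member UMIs, the lowest of the 5 classes, beside 12.3% and 11.4% in AT2 cells. Under both other scalings Psmb10, Psme1 and Psme2 also met the call as lower. None of the 3 constitutive catalytic subunits met the call as lower under any of these scalings. Psmb6 was at 416 and 417.6 CPM and Psmb5 at 286.9 and 324 CPM, each above AT2 cells by 2.40-fold or more in CPM in both libraries. Psmb7, the counterpart of Psmb10, was lower among them, at 1.64-fold and 2.01-fold of AT2 cells in CPM. Under the other 2 scalings all 3 lost their call as higher. Psmb6 and Psmb5 stayed above AT2 cells there, at between 1.38-fold and 1.46-fold, and the folds of Psmb7 there are not given.

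**Figure D4:**
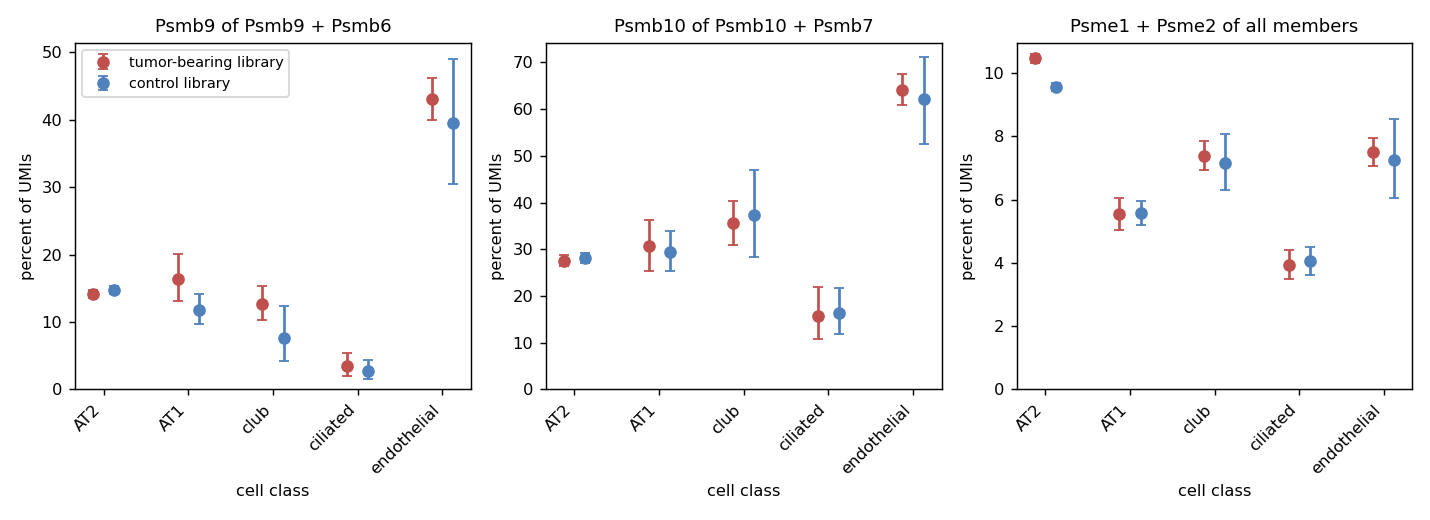
Percent of UMIs taken by the first-named gene or genes, for Psmb9 with Psmb6, Psmb10 with Psmb7, and Psme1 with Psme2 of all members, in 5 cell classes; points are libraries and bars exact 95% binomial intervals. Endothelial cells are highest and ciliated cells lowest for both subunit pairs, while the Psme1 and Psme2 share is highest in AT2 cells.

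AT1 and club cells lay between these. In AT1 cells Psmb9 made up 16.4% (13.1 to 20.1) and 11.8% (9.68 to 14.1) and Psmb10 30.6% (25.4 to 36.2) and 29.5% (25.3 to 34.0) of their pairs. The intervals met those of AT2 cells except for Psmb9 in the control library. There the AT1 interval ended at 14.10% and the AT2 interval began at 14.15%. The 12 endothelial markers summed to 1545 CPM in tumor-bearing and 385 CPM in control AT1 cells. The 11 AT2 markers summed to 45161 and 54904 CPM there. The part of such transcripts in the AT1 shares was not tested. In club cells Psmb9 made up 12.7% (10.3 to 15.4) and 7.57% (4.2 to 12.4), and Psmb10 35.5% (30.9 to 40.4) and 37.3% (28.2 to 47.0). Against AT2 cells, the Psmb10 interval lay higher in the tumor-bearing library and the Psmb9 interval lower in the control library. The other club intervals met those of AT2 cells. In empty droplets Psmb10 made up 35.6% (32.1 to 39.3) and 31.8% (26.5 to 37.6) of its pair. Club cells had 3 members called lower than AT2 cells in CPM: Psmb9 (0.574-fold in the tumor-bearing mouse and 0.407-fold in the control mouse), Psme2 (0.490 and 0.572) and Psme4, an activator with a role at chromatin (0.467 and 0.293). None of the 3 calls held under another scaling, and the log2 ratio of Psmb9 in tumor-bearing club cells changed sign.

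Ciliated cells had a second feature, in assembly chaperones. Psmd9 (chr5:123169413-123250131, plus strand), a chaperone of the ATPase ring, stood at 161.2 CPM in the tumor-bearing mouse and 159.3 CPM in the control mouse, against 22.0 and 23.3 CPM in AT2 cells, a fold of 7.34 and 6.83. Psmd10 (chrX:140948429-140956728, minus strand), also called gankyrin and a chaperone of the same ring, stood at 114.4 and 99.8 CPM, against 22.0 and 20.9 CPM, a fold of 5.19 and 4.78. The third such chaperone, Psmd5, stood at 41.6 and 54.1 CPM against 21.5 and 21.6 CPM, a fold of 1.94 and 2.51, near that of the median member. The calls of Psmd9 and Psmd10 held under each scaling and that of Psmd5 did not. Psmd9 and Psmd10 together took 4.33% (3.87 to 4.82) and 4.11% (3.69 to 4.56) of member UMIs in ciliated cells and between 1.16% and 1.67% in the other 4 classes; this pair was chosen after its values were seen.

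Psmc3ip (chr11:101091823-101095436, minus strand), which is not a proteasome gene, had the highest fold among members in ciliated cells: 100.5 CPM in the tumor-bearing mouse and 93.6 CPM in the control mouse in ciliated cells, against 4.94 and 3.76 CPM in AT2 cells, a fold of 20.4 and 24.9. It reached the minimum of 10 CPM only through its level in ciliated cells and was not compared in the other classes. In cells thinned to 2000 UMIs, Psmc3ip was found in 17.2% and 14.5% of ciliated and 0.798% and 0.705% of AT2 cells, Psmd9 in 26.5% and 30.04% against 4.07% and 4.72%, and Psmd10 in 20.5% and 18.0% against 4.2% and 4.14%. Unthinned, Psmc3ip was found in 40.0% and 33.2% of ciliated cells and in 4.30% and 2.60% of AT2 cells, at median depths of 5107 and 4337 UMIs in ciliated cells. Psme2b, the other member by prefix, had 0 UMIs in ciliated cells of the tumor-bearing library, which allows up to 2.60 CPM, and 3.87 CPM in the control library.

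**Figure D5:**
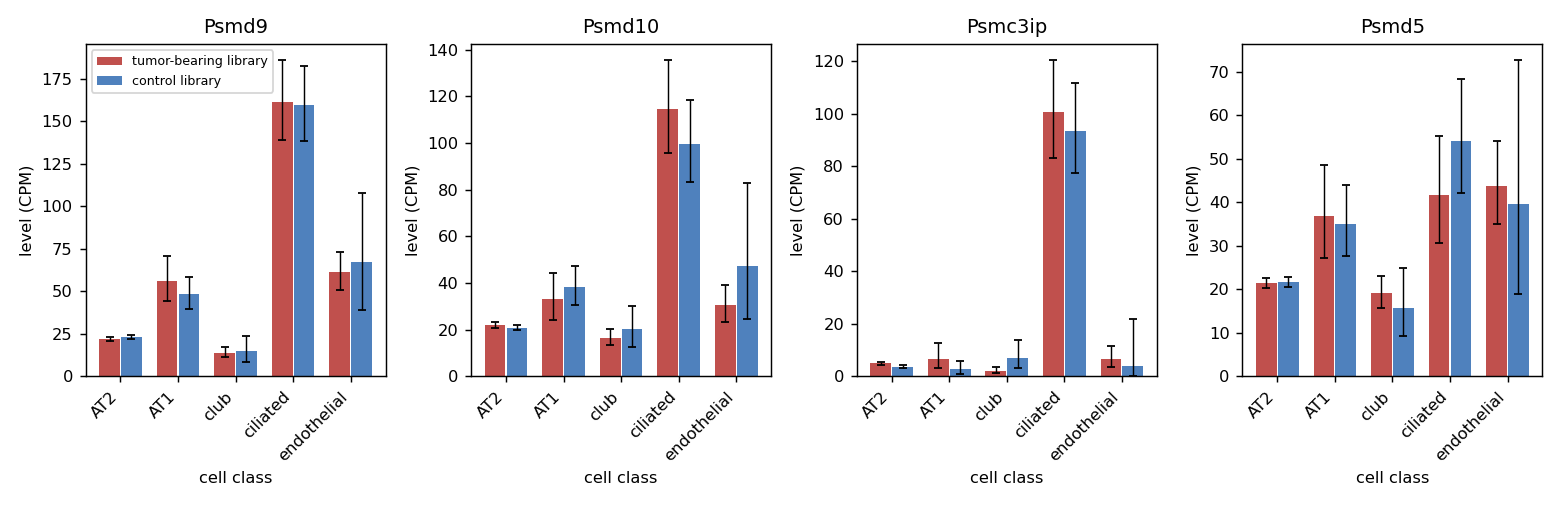
Level (CPM) of Psmd9, Psmd10, Psmc3ip and Psmd5 in 5 cell classes, with 1 bar per library and 95% Poisson intervals; the panels differ in scale. The first 3 genes are highest in ciliated cells by a wide margin, while Psmd5 is spread more evenly.

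Neighbouring genes differed in whether they showed the same pattern. Wdr66, a gene of cilia on the same strand 1970 bases beyond Psmd9, stood at 258 and 200.3 CPM in ciliated cells and at 0.817 and 0.890 CPM in AT2 cells, so it moved with Psmd9; its part in the Psmd9 counts was not tested. Atg4a, which starts 178 bases from Psmd10 on the other strand, stood at 17.3 and 17.01 CPM in ciliated and 7.98 and 8.34 CPM in AT2 cells. Mlx, which overlaps Psmc3ip by 385 bases on the other strand, stood at 22.5 and 32.5 CPM in ciliated and 21.0 and 20.5 CPM in AT2 cells. The levels of Atg4a and Mlx in ciliated cells were below those of Psmd10 and Psmc3ip.

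The base ATPases stood high among members outside AT2 cells. In AT1 cells all 6 lay above the median member in both libraries, and the 6 highest calls there, by the smaller of the log2 ratios in the 2 libraries, were Psmc1 (3.14-fold and 3.35-fold over AT2), Psmc2 (3.08 and 3.38), Psmc5 (2.97 and 2.82), Psmc3 (2.82 and 2.96), Psmg2, a core assembly chaperone (2.69 and 2.91), and Psmc4 (2.80 and 2.56). Psmc1, Psmc2, Psmc3, Psmc5 and Psmg2 kept their call under each scaling, and Psmc4 lost it with the median of ratios. The regulatory particle took 32.6% (31.5 to 33.6) and 33.9% (33.1 to 34.7) of member UMIs in AT1 cells, against 25.7% (25.5 to 25.9) and 26.3% (26.1 to 26.5) in AT2 cells. Its share was 28.8% and 27.5% in ciliated, 29.8% and 29.8% in endothelial and 26.7% and 30.6% in club cells. Psmc2 and Psmc4 also held their call in ciliated (Psmc4 3.87 and 3.19, Psmc2 2.89 and 3.06) and endothelial cells (Psmc2 3.76 and 3.33, Psmc4 3.18 and 3.02), as did Psmc1 in endothelial cells (3.71 and 3.0). Core subunits took from 50.8% of member UMIs in tumor-bearing endothelial to 58.7% in tumor-bearing club cells. Psme1 was at 156.1 and 158.6 CPM in AT1 cells, 0.755-fold and 0.838-fold of AT2, and met the call as lower, with Psme4, under both other scalings.

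Between libraries, members outside AT2 cells were called lower more often than all genes in AT1 and club cells, with no test of that difference. In club cells, however, the members' median ratio was not below that of all genes. A call needs an interval that leaves out 1, and that interval is narrower for genes with more UMIs. These shares alone therefore do not show a lower level of the members. In AT1 cells their median log2 ratio was -0.14 beside -0.02 over all genes, with 0 members higher (9.31% of all genes) and 5 of 44 lower (11.4% of members beside 6.48% of all genes), 32 of the 44 lying below the median of all genes. The 5 were Psmb4, Psmc1, Psmc6, Psmd8 and Psmd13, with folds from 0.692 to 0.777. Psmc1 was also among the lowest folds in AT2 cells. In ciliated cells the medians were 0.06 and 0.03, with 1 member higher (6.22%), the lid subunit Psmd6 at 1.55-fold, and 0 lower (4.22%). In endothelial cells they were 0.04 and 0.01, with 3 higher (5.75%), Psma6, Psmb1 and Psmd4, and 0 lower (5.87%). In club cells they were -0.46 and -0.49, with 0 higher (1.1%) and 24 of 43 lower (55.8% of members beside 42.6% of all genes), where the 5 basal cell markers summed to 179 CPM in the tumor-bearing mouse and 1231 CPM in the control mouse and median depths were 22230 and 8382 UMIs; the part of either was not tested. These comparisons were added after the AT2 values were seen.

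Of 30 other genes of the pathway, 26 reached the minimum in AT2 cells. Between libraries 0 of the 26 were called higher (3.84% of all genes were) and 2 lower (4.81% were). Among the 2 was B2m, the light chain of MHC class I (0.56-fold). Nfe2l1, the transcription factor that drives proteasome genes when the proteasome is inhibited, was at 0.98-fold, and Pomp, the core maturation factor, at 0.98-fold. In endothelial cells 6 of the 7 interferon and class I loading genes that reached the minimum were called higher than in AT2 cells in CPM (41.4% of all genes were), and 4 of 7 under each of the other 2 scalings (17.9% and 20.2% of all genes), among them in each case Tap2 (9.52-fold in the tumor-bearing mouse and 8.11-fold in the control mouse) and B2m (11.24 and 5.72). In ciliated cells 2 of 5 were higher (51.8% of all genes were) and 1 lower (9.21% were) in CPM. The 1 lower was B2m, at 0.61-fold and 0.52-fold. Under each of the other 2 scalings 1 was higher (24.2% and 24.5% of all genes) and 2 lower (22.4% and 21.9%), B2m among them. Shfm1, a small lid subunit named outside the Psm series, was 4.05-fold and 3.9-fold higher in ciliated than in AT2 cells, a call that held under each scaling (2.22-fold and 2.25-fold with the median of ratios). Of the 7 other particle genes 5 were called higher there in CPM, where 51.8% of all genes were, and 1, Shfm1, under each of the other 2 scalings (24.2% and 24.5% of all genes).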

How the data were processed

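Droplet data of 2 libraries were used. The authors deposited raw counts (UMIs of each gene in each barcode), 737280 barcodes per library, with no cell call; per the series' design text reads were processed with Cell Ranger 2.1.0, and per the submitters' processing notes the build was mm10, with Seurat and R 3.5.3 also named without a role. Whether counting used strand is not given in the sources used here.

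Barcodes with at least 2000 UMIs, 500 genes and at most 20% mitochondrial UMIs were kept. The automatic doublet threshold of Scrublet marked 0 cells in each library, so the highest scores were removed at 0.8% per 1000 cells (533 and 966 cells); mixed droplets can remain. Cells were clustered with scanpy 1.11.5 (2000 variable genes without the members, 30 components, 15 neighbours, Leiden resolution 0.5). No deposited annotation was used, so classes were rebuilt and may differ from the authors'. Counts were summed per class and library, scaled to CPM, with a minimum mean of 10 CPM and 1 CPM added for log2. Intervals (scipy 1.17.1) are Poisson for levels, conditional binomial for folds and Clopper-Pearson for shares. The calculation was tested on simulated data. Positions are from GENCODE vM21 (all 46 members matched by identifier); upstream sequences are from RefSeq, GRCm38.p6.

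Members, lists and markers were chosen with earlier results of these data known, and the cluster naming rule, the motif patterns, the Psmd9 and Psmd10 share, the ratios between libraries outside AT2 cells and those of AT2 clusters to the remaining AT2 cells after values were seen. Named were called members, otherwise the 4 highest and 4 lowest, up to 6 per direction against AT2, and all immune and catalytic genes; any other named member was chosen after its values were seen. 1 gene with these prefixes and some genes of the pathway list are not reported here. Alternatives covered cell minimum, doublets, free RNA, mitochondrial limit, Sftpc limit, class definitions, cluster weights, scaling, CPM minimum, added CPM and fold size.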

Additional observations from a re-analysis of the deposited data

Results flagged for a closer look

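Psma6 and Psmd4 met the call (at least 25% above the control level, or at most 0.8 times it) in opposite directions between libraries in 2 cell classes. Psma6, an alpha ring subunit, was 0.754-fold (0.605 to 0.947) in club cells and 1.44-fold (1.02 to 2.09) in endothelial cells, tumor-bearing over control. Psmd4, the ubiquitin receptor of the base, was 0.624-fold (0.490 to 0.801) in club cells and 1.66-fold (1.14 to 2.49) in endothelial cells. The difference between the classes was not tested, and the median log2 ratio of all genes was -0.49 in club and 0.01 in endothelial cells.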

How the results depend on the processing

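No paired analysis was possible because each group had 1 library, and leaving out a replicate was not possible for the same reason. Of the main values under alternatives, 259 kept their value within the counting interval or 1.5 times the count, and 45 did not. In AT2 cells the median log2 ratio of members was -0.021 with the median of ratios. The count of members called lower was 0 with AT2 clusters weighted equally and 9 at 1.1-fold, and the count called higher was 1 without a CPM minimum (Psmc3ip). No share of all genes is given beside these counts.

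Scaling had the widest effect on the classes. The members' medians against AT2 are given tumor-bearing then control. With the median of ratios they were 0.26 and 0.31 in AT1, 0.41 and 0.37 in club, 0.30 and 0.21 in ciliated and 0.31 and 0.15 in endothelial cells. In that order 5, 9, 5 and 5 members were called higher (18.6%, 8.33%, 24.2% and 17.9% of all genes). Lower were 2, 0, 4 and 0 members (19.9%, 11.4%, 22.4% and 17.6% of all genes). Without mitochondrial and the 50 most abundant genes in the total the medians were 0.37 and 0.37, 0.17 and 0.20, 0.34 and 0.20, and 0.43 and 0.33. There 6, 0, 5 and 9 members were higher (21.0%, 5.68%, 24.5% and 20.2% of all genes). Lower were 2, 0, 4 and 0 (18.1%, 16.7%, 21.9% and 14.6%). Both ciliated counts of higher members include Psmc3ip. The log2 ratio of Psmb9 in control AT1 cells was -0.16 and -0.11 in these 2 scalings, and in tumor-bearing club cells 0.10 with the median of ratios.

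With marker gates in place of clusters the club medians were 0.034 and 0.57, with 2 club members called higher and 0 lower, and 0 ciliated members lower; these gates put 190 and 211 cells of the ciliated cluster into the club class. With AT2-like clusters for AT2, the control endothelial median was 0.82. After subtraction of free RNA, the tumor-bearing AT1 median was 1.20 and the control endothelial median 1.26. At 2-fold, 20 ciliated and 21 endothelial members were higher, and 0 ciliated and 1 club member lower. The 20 include Psmc3ip, and no share of all genes is given beside these counts or those with marker gates. Followed singly were 14 library ratios in AT2 cells and 50 ratios to AT2 of the immune genes, Psmd9, Psmd10 and Psmc3ip. Of their 832 values under alternatives, 769 kept their call or lack of one, 34 lost a call, 26 gained one and 3 called values, those of Psmb9 above, changed sign. Values with no call changed sign 38 times, and 5 of these became calls, Psmb10 in control ciliated cells (1.01-fold) becoming 0.58-fold under both other scalings. Over all members tested, the sign in club cells changed for 40 and 15 of 44 with the median of ratios and for 33 and 10 without abundant genes; in the other classes it changed for between 7 and 16. The control library held 75 endothelial and 109 club cells, which limits precision there.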
